A study of Homo sapiens with 14 samples.

Results

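Guides against olfactory receptor genes were set against non-targeting guides as targeting controls, since most of these receptors are not known to act outside the nose. Members were all guides whose gene symbol was OR followed by 1 or 2 digits, 1 subfamily letter and a number. This gave 4992 of the 268406 guide rows in the 4 count tables of the series. Each knockout table held 1436 such guides against 359 genes, 4 per gene, among 77441 guides. Each activation table held 1060 guides against 355 genes, among 56762 guides. Of these genes 352 had 3 guides, 1 had 2 and 2 had 1. A total of 353 receptor genes were in both libraries. The yardstick was the non-targeting guides, which match no gene, 1000 in each knockout table and 496 in each activation table.

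RKO and SW620, human colorectal carcinoma cell lines, carried either Cas9 with the Brunello knockout library or dCas9-VP64 with the Calabrese activation library. Cells expressing Cas9 or dCas9-VP64 were selected with blasticidin, were transduced with guides at about 0.3 viral particles per cell and kept in puromycin for 3 days. They were then sampled at day 0, after 20 days without drug, or after 20 days with oxaliplatin, a platinum drug that crosslinks DNA. The dose was 1.9 µM in RKO and 0.38 or 0.5 µM in SW620. The 14 libraries covered 14 conditions with 1 library each, so no difference could be set against the spread between cultures and no test between conditions was made.

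Olfactory receptors are G protein-coupled receptors that sensory neurons of the nose use to detect odorants. A neuron expresses a single receptor gene, and the receptor signals through the G protein subunit GNAL, the adenylyl cyclase ADCY3 and a cyclic nucleotide-gated channel. The family is the largest in the human genome. It is arranged in clusters of tandem duplicates on many chromosomes, with class I receptors in 1 cluster and class II elsewhere, and a large share of its copies are pseudogenes. A Cas9 guide against such a gene cuts DNA, whereas dCas9-VP64 binds the promoter and recruits a transcriptional activator without cutting.

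Duplication can be seen directly in the reference. The promoters of the subfamily members OR4F5 and OR4F17 are shown because cells with knockout guides to both genes were among the scarcest after 20 days in RKO. Those of OR11H12 and OR11H1 are shown because OR11H12 was below the non-targeting range in both lines. Each RefSeq window (GRCh38.p14) is 300 bases long, on the + strand, and capitals mark stretches made of 20-base words shared with the partner. The windows lie at chr1:65169-65468 for OR4F5, chr19:106854-107153 for OR4F17, chr14:18600867-18601166 for OR11H12 and chr22:15527942-15528241 for OR11H1.
OR4F5: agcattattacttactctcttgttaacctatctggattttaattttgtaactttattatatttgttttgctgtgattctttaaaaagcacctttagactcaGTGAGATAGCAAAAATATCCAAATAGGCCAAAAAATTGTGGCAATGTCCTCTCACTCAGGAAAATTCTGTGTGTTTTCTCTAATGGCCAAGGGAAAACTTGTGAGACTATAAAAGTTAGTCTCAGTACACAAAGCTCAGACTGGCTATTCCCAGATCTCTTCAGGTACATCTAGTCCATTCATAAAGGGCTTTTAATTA
OR4F17: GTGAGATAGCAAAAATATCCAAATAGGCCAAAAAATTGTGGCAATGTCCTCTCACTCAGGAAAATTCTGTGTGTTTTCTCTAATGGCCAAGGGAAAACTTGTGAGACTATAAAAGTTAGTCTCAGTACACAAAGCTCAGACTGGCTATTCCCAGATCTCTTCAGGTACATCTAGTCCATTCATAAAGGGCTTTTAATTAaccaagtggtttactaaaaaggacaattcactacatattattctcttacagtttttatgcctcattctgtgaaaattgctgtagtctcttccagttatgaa
OR11H12: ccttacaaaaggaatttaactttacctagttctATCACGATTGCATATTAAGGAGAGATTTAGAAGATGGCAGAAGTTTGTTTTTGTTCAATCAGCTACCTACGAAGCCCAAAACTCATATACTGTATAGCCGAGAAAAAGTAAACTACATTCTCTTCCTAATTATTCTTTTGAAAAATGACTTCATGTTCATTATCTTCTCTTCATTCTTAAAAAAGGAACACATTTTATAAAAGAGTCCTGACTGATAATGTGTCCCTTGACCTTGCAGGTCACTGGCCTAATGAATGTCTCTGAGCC
OR11H1: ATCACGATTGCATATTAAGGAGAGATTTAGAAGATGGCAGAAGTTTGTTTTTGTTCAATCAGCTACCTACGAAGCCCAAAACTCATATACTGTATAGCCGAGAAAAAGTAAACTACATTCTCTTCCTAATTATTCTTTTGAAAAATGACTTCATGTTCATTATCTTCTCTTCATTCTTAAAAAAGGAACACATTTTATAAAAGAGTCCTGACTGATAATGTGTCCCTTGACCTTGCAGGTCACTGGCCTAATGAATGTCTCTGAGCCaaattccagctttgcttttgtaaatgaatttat
The 4F pair shared 1 unbroken run of 199 bases although the windows lie on different chromosomes. The 11H pair shared a run of 267 bases. Both runs extend from the start of a window to the end of its partner's window. The full length of the shared stretches was therefore not measured, and lowercase bases are not shown to differ between the partners. Guide sequences were not used here, so how many places each guide matches was not tested.

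Before any growth comparison, receptor guides were already scarcer than non-targeting guides at day 0. In RKO knockout the median count at day 0 was 380 for receptor guides (quartiles 263 and 577) and 810 for non-targeting guides (628 and 1011), a ratio of 2.13. In SW620 knockout the medians were 811 and 1600, a ratio of 1.97. The gap was smaller in the activation libraries, with 860 against 1042 in RKO (1.21) and 333 against 406 in SW620 (1.22). Targeting guides as a whole had day 0 medians of 348 and 766 in the knockout libraries, near the receptors, and of 986 and 381 in the activation libraries, nearer the non-targeting guides. Whether this gap arose in the plasmid pool or during selection cannot be told apart here. Totals ranged from 3647823 counts in untreated SW620 activation to 69526489 in SW620 knockout at day 0, and intervals below cover the spread over guides within these libraries only.

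After 20 days without drug, knockout guides against receptors lay behind non-targeting guides in both lines, further in RKO than in SW620. In RKO the median log2 fold of day 20 over day 0 was 0.17 for the 1426 receptor guides that had at least 30 counts at day 0 (95% interval of the median over guides, 0.14 to 0.20). It was 0.51 for 989 non-targeting guides (0.49 to 0.53). The receptor median therefore lay 0.34 log2 units, or 21.0%, under the non-targeting median, and 83.1% of receptor guides lay below that median. In SW620 the medians were 0.14 (0.12 to 0.15, 1427 guides) and 0.25 (0.24 to 0.27, 993 guides), a difference of -0.12 log2 units or 7.78%. There 66.9% of receptor guides lay below the non-targeting median. The intervals of receptor and non-targeting guides did not overlap in either line. The library as a whole lay lower still. All targeting guides had medians of -0.45 in RKO and -0.23 in SW620 from the non-targeting median, with 86.6% and 76.7% of them below it.

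Most receptor genes shared the difference. The median over a gene's guides lay below the non-targeting median for 342 of 359 genes in RKO (95.3%) and 277 of 359 in SW620 (77.2%), against 96.4% and 87.8% of all genes. Every guide passing the count minimum lay below it for 176 genes in RKO (49.0%) and 80 in SW620 (22.3%), against 59.3% and 38.8% of all. A guide was counted as low when it lay below the 5th percentile of non-targeting guides in the same pair of libraries. Low receptor guides made up 35.1% in RKO, where 44.9% of all targeting guides were low, and 23.8% in SW620, where 38.1% of all were low. Guides above the 95th percentile made up 2.03% and 5.82% of receptor guides, against 1.77% and 4.0% of all. Receptor guides were thus low less often than the library as a whole, which also holds the genes that cells need to grow.

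Other lists of genes set beside the receptors also lay below non-targeting guides. Guides to other tissue-restricted families had medians of -0.42 log2 units from non-targeting guides in RKO (639 guides) and -0.16 in SW620 (639 guides). In RKO the interval of their median log2 fold (0.033 to 0.141) lay just below that of the receptors (0.144 to 0.199), and in SW620 (0.07 to 0.12) it overlapped it. Receptors with 2 letters in their subfamily name, 60 guides outside the rule, lay at -0.25 and -0.11. The genes of olfactory signalling, including GNAL, ADCY3 and LDB1, lay at -0.32 and -0.18 over 63 guides. That list was not limited to genes that colorectal cells do not use. In contrast the cytosolic ribosomal proteins, which every dividing cell needs, lay at -3.52 in RKO (304 guides) and -1.07 in SW620 (314 guides). On the log2 scale the receptor difference amounted to 9.65% of the ribosomal one in RKO and 10.9% in SW620. For receptors the ratio to the ribosomal difference was thus close in the 2 lines, while the receptor difference itself was -0.34 in RKO and -0.12 in SW620. That closeness did not hold for all targeting guides, which lay at -0.45 in RKO and -0.23 in SW620. What sets the ratio was not tested.

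The difference was also seen among guides with like starting counts, at sizes that varied with the count. Receptor and non-targeting guides whose day 0 count lay between the quartiles of the non-targeting counts differed by -0.30 in RKO (255 receptor guides, interval -0.35 to -0.20) and -0.13 in SW620 (280, -0.18 to -0.08). Within RKO guides of over 400 and up to 800 day 0 counts the medians stood at -0.33 for 524 receptor guides and 0.01 for 447 non-targeting guides, each relative to all non-targeting guides. Those of over 800 and up to 1600 counts stood at -0.22 (133 receptor guides) and 0.00 (502), and those of over 200 and up to 400 at -0.37 (594) and -0.14 (22). The gap was thus narrower in the bins on either side. Within SW620 guides of over 800 and up to 1600 counts they stood at -0.14 (556) and 0.02 (461).

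Guide by guide, the lines differed in the same direction. Of 1426 receptor guides passing in both, 70.5% lay lower in RKO than in SW620 after subtracting the non-targeting medians, and the median of that difference was -0.25 log2 units. For non-targeting guides the share was 49.0%, and for all targeting guides it was 69.3%. The 2 lines differ in many ways, and the cause of this difference was not tested.

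Which receptor guides were low was only weakly shared between the lines. Spearman's rho over the 1426 guides was 0.09, against 0.24 over all targeting guides and -0.18 over non-targeting guides. Within each line all guides share the same untreated and day 0 libraries. Of the 501 guides low in RKO and the 338 low in SW620, 136 were low in both, which is 27.1% of the former and 40.2% of the latter. Over all targeting guides the low guides common to both lines made up 47.3% and 55.8%. Of all 1426 receptor guides 23.7% were low in SW620. Over gene medians rho was 0.15 for 359 genes and 0.10 for the 350 genes outside the OR4F subfamily.

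The OR4F subfamily stood apart from all other receptors. Its 34 passing guides against 9 genes had a median of -2.01 log2 units in RKO (interval -2.89 to -1.03) and -0.48 in SW620 (-0.72 to -0.34), with 27 and 24 of them low. The remaining 1392 guides in RKO had a median of -0.33 (-0.36 to -0.31), and 1393 in SW620 had -0.11 (-0.13 to -0.09). OR4F is a class II subfamily whose copies lie mostly near chromosome ends. RefSeq lists 17 loci, 9 of them pseudogenes, and OR4F4 is itself listed as a pseudogene. OR4F3, OR4F16 and OR4F29 are known as near-identical copies, so a guide to one may match the others. Of 36 OR4F guides listed, 2 had 0 counts in all RKO libraries and were left out.

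In RKO the 5 lowest receptor genes were all of this subfamily. OR4F21 had a median of -3.54 (guide SD 1.08, 3 guides), OR4F29 -2.77 (0.69, 3 guides), OR4F16 -2.61 (2.19, 4 guides), OR4F17 -2.54 (0.96, 4 guides) and OR4F5 -2.53 (1.70, 4 guides). In SW620 the same genes lay at -0.38, -1.48, -0.65, -0.39 and -0.46. OR4F4 (-2.29 and -0.72) and OR4F3 (-2.16 and -0.47) followed. OR4F6 and OR4F15 lay nearer the other receptors: OR4F6 lay at -0.70 in RKO and -0.28 in SW620, and OR4F15 at -0.34 and -0.10.

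The raw counts show the size of the loss. For the 4 guides to OR4F16, day 0 counts in RKO were 233, 441, 125 and 176, and untreated day 20 counts were 4, 542, 69 and 12. All but the second guide lost many of their reads, while the library total was 31699260 counts at day 0 and 34540094 at day 20. In SW620 the same guides went from 699, 1243, 632 and 552 to 412, 663, 292 and 265, so the first guide, almost gone in RKO, kept 412 of 699 in SW620, where the library total was also lower at day 20, with 47429044 counts against 69526489 at day 0. After scaling, the gene's SW620 median was -0.65. For OR4F17, RKO counts went from 385, 333, 391 and 154 to 24, 87, 88 and 50. In SW620 they went from 892, 1136, 1074 and 368 to 676, 535, 542 and 272. OR4F5 had 1 guide unlike the rest: in RKO its counts went from 249, 306, 150 and 301 to 23, 142, 15 and 439. The last of these guides lay at -0.04 log2 units while the first lay at -3.67.

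Genes outside OR4F spanned medians from -1.78 to 0.33 in RKO and from -1.06 to 0.42 in SW620. A gene was counted as low when its median lay below the non-targeting 5th percentile and at least 3 guides did. By this rule 52 of 359 receptor genes (14.5%) were low in RKO, where 28.1% of all genes were, and 21 (5.85%) in SW620, where 20.3% of all were. Both lines shared 8 low genes, 15.4% of the RKO list and 38.1% of the SW620 list, against 42.6% and 59.0% over all genes. These were OR4F3, OR4F4, OR4F5, OR4F16, OR4F29, OR4M2, OR11H12 and OR5K4. OR4M2 lay at -1.06 in RKO (guide SD 0.36) and -0.55 in SW620 (0.18), OR11H12 at -0.91 (0.70) and -0.52 (0.30), and OR5K4 at -1.16 (0.69) and -0.41 (0.55). The 4 guides to OR4M2 all lay low in RKO, with counts of 212, 163, 336 and 288 at day 0 and 169, 84, 212 and 272 at day 20. In SW620 they went from 492, 477, 916 and 1128 to 318, 255, 432 and 623. OR11H12 again had 1 guide apart from the others, the third of 598, 821, 557 and 596 counts at day 0 in RKO, which became 267, 569, 810 and 541. In SW620 the same guide was the highest of the 4 at 0.04 log2 units, with 1229 and 1011 counts. Of the 5 lowest genes in SW620, OR4F29, OR4F4 and OR4F16 belonged to OR4F, while OR7E24 lay at -1.06 (0.76) and OR10H1 at -0.62 (0.44). OR7E24 is the sole member here of the subfamily with the most RefSeq loci, 90, of which 89 are pseudogenes. In RKO OR7E24 lay at -0.76 over 3 guides, 1 of which went from 63 counts to 0.

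High values were rare. No receptor gene lay above the non-targeting 95th percentile in RKO by the matching rule, where 0.0157% of all genes did, and 1 did in SW620, where 0.0628% of all did. That gene was OR5H6, at 0.42 log2 units in SW620 (guide SD 0.15) and -0.33 in RKO. The highest medians in RKO were those of OR8U1 (0.33), OR10G8 (0.28) and OR2L13 (0.20). In SW620 OR8U1 lay at 0.28 and OR4C15 at 0.26, while OR10G8 and OR2L13 lay at -0.33 and -0.30. The guides of OR8U1 did not move together: in RKO their counts went from 404, 238, 134 and 256 to 249, 652, 361 and 348.

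Guides to the same gene resembled each other little once OR4F was set aside. The share of the variance among receptor guides that lay between genes was 0.281 in RKO and 0.147 in SW620, and 0.0687 and 0.0868 without OR4F. The remainder lay between guides of the same gene.

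Knockout guides to the few genes that shared a long promoter stretch with another receptor had a lower median than those to genes that shared none. Whether these guides fall in shared stretches was not tested. RefSeq promoters were at hand for 284 of the 359 knockout genes, and most OR4F genes had none. Of the 284 genes, 30 (10.6%) shared at least 1 word of 20 bases, on either strand, with another receptor's promoter at another place, and 7 shared 100 or more. Shared words outside the promoter windows were not counted. The 7 were OR4F5, OR4F17, OR11H1, OR11H12, OR13C2, OR13C5 and OR4M2. Their 28 guides had a median of -0.79 in RKO (-1.48 to -0.53) and -0.35 in SW620 (-0.54 to -0.15). The 254 genes that shared none had medians of -0.33 (-0.37 to -0.30) and -0.12 (-0.14 to -0.09). The 23 genes that shared fewer than 100 words lay at -0.33 (-0.46 to -0.18) and -0.06 (-0.13 to 0.04), with no step. Single genes differed: 5 of the 7 were low in RKO and 3 in SW620. OR13C2 and OR13C5, which shared 123 words with each other, lay at -0.50 and -0.46 in RKO and at -0.11 and -0.27 in SW620. Without the OR4F pair the median of the remaining 20 guides was -0.69 in RKO and -0.30 in SW620. OR11H1, the partner of OR11H12 in the sequences above, lay at -0.72 in RKO (guide SD 0.23) and -0.08 in SW620 (0.30). The number of loci in a subfamily showed no such step outside OR4F: subfamilies of 1 locus had medians of -0.32 and -0.16, and those with over 10 loci -0.37 and -0.09. In untreated activation, 15 guides to genes sharing 100 or more words lay at -0.03 in RKO (-0.15 to 0.15) and 0.09 in SW620 (-0.17 to 0.28). Activation guides to genes that shared none lay at 0.05 and 0.03.

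Subfamilies and classes differed modestly. Of 19 subfamilies with at least 20 guides, all lay below 0 in RKO and 18 in SW620. OR11H was next after OR4F in both lines, at -0.68 in RKO and -0.41 in SW620, each over 20 guides. OR5H, with 20 guides, was the exception above 0 in SW620 at 0.17, with no low guide. Class I receptors lay at -0.26 in RKO (-0.31 to -0.22, 203 guides) and -0.07 in SW620 (-0.12 to -0.03), against -0.36 (-0.39 to -0.33, 1223 guides) and -0.13 (-0.15 to -0.11) for class II. Their intervals did not overlap in RKO and did in SW620. The 203 class I guides all lie in a single chromosomal run, from OR52B4 to OR52W1, so class and place cannot be told apart.

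Receptor genes also share neighbourhoods, and neighbourhoods differed. In runs of receptor genes with at most 5 other genes between them, 19 runs held at least 20 guides, and all 19 medians lay below 0 in both lines. In SW620 the lowest was the run from OR1D5 to OR1E2, at -0.33 over 40 guides with 52.5% low, and it lay at -0.40 in RKO. The 10 genes on each side of that run had medians of -0.45 in SW620 and -0.67 in RKO. The run from OR2F2 to OR2A1 was the highest in SW620, at -0.01, and among the lowest in RKO, at -0.50 over 44 guides. Its flanking genes had medians of -0.17 in SW620 and -0.73 in RKO. In each line the receptor median lay above the flank median in 15 of the 19 runs. Across the 19 runs Spearman's rho between the run's median and that of its flanking genes was 0.36 in RKO and 0.39 in SW620. Between the lines it was 0.26. Run and flank come from the same libraries, and copy number was not analysed here.

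Several receptors have been described outside the nose, and these gave no common pattern in knockout. OR51E1 and OR51E2, known from prostate, lay at -0.21 and -0.14 in RKO and at 0.06 and -0.02 in SW620. OR51B4, described in colon cancer cells, lay at -0.31 in RKO and -0.05 in SW620. OR7C1, also described there, lay at -0.68 in RKO, with 3 of 4 guides low, and at 0.17 in SW620, with none low and 2 high. Its counts went from 196, 212, 239 and 521 to 184, 193, 345 and 404 in RKO, and from 441, 440, 524 and 986 to 491, 463, 382 and 758 in SW620. OR1D2, described in sperm, lay at -0.25 in RKO and -0.41 in SW620, where 3 of 4 guides were low.

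Activation guides, which bind receptor promoters without cutting, did not lie below non-targeting guides over 20 untreated days. The activation and knockout screens also differ in library, guides and day 0 counts, so the cause of this contrast was not tested. In RKO the receptor median was 0.15 (0.12 to 0.18, 1059 guides) and the non-targeting median 0.10 (0.06 to 0.14, 496 guides), a difference of 0.05. In SW620 the values were 0.08 (0.05 to 0.10, 1060 guides) and 0.05 (0.02 to 0.09), a difference of 0.02, with 3647823 counts in the untreated library. The intervals overlapped in both lines. Low receptor guides made up 6.14% in RKO and 6.89% in SW620, against 10.2% and 10.1% of all targeting guides. High ones made up 8.03% and 6.04%, against 4.45% and 4.2% of all. All targeting guides together lay at -0.08 and -0.05 from the non-targeting median, below the receptors.

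At the gene level few receptors lay outside the non-targeting range under activation. With at least 2 guides required, 9 of 353 genes (2.55%) were low and 9 high in RKO, where 3.55% and 0.708% of all genes were. In SW620 1 was low (OR5C1) and 1 was high (OR5M3), each 0.283%, against 3.49% and 0.564% of all. OR5C1 lay at -0.58 there and at 0.55 in RKO, and OR5M3 lay at 0.54 and 0.45. In RKO OR8B4 lay at -0.94 with all 3 guides low, from 849, 1208 and 857 counts to 258, 261 and 266. OR4F16 lay at -0.91, OR52B6 at -0.88, OR2H2 at -0.85 and OR52N5 at -0.85. In SW620 the same 5 genes lay at -0.31, -0.23, -0.14, 0.16 and 0.06, and none was low there. OR8U1 was the highest in RKO at 0.81, with its 3 guides at 0.81, 0.68 and 0.85, and lay at 0.38 in SW620. OR52N2 (0.75) and OR10J1 (0.75) followed in RKO and lay at -0.10 and 0.19 in SW620. The OR4F subfamily, so low in knockout, lay at -0.04 in RKO (-0.56 to 0.30) and 0.15 in SW620 (-0.23 to 0.31) over 16 activation guides to 6 of its genes. Of the 16, 3 were low in RKO (18.75%) and 0 in SW620, against 5.94% and 6.99% of all other receptor guides. OR4F5, whose promoter is printed above, lay at 0.07 and 0.28, and activation guides to OR4F17 were not among the members. The share of variance between genes was 0.0448 in RKO and -0.0105 in SW620, the latter meaning that guides of a gene were no more alike than guides of different genes.

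Under oxaliplatin the spread among knockout guides was wider than during untreated growth. The treated libraries are compared with untreated day 20, and the SW620 doses share that untreated library. In RKO knockout at 1.9 µM the SD of the log2 fold was 1.32 among receptor guides and 0.99 among non-targeting guides, against 0.58 and 0.29 for untreated growth. The receptor median lay at -0.24 from the non-targeting one, at -0.22 in SW620 at 0.38 µM and at -1.07 at 0.5 µM. All targeting guides lay at -0.20, -0.23 and -1.04, so receptors followed the library. Low receptor guides made up 14.7%, 18.4% and 18.9%, against 16.0%, 19.2% and 17.3% of all targeting guides. High ones made up 7.22%, 6.8% and 5.82%, against 9.97%, 7.52% and 6.05% of all.

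These treated knockout differences moved with the guides' starting counts. Among guides between the quartiles of the non-targeting day 0 counts they were -0.024 in RKO (interval -0.25 to 0.17), -0.018 in SW620 at 0.38 µM (-0.17 to 0.15) and -0.11 at 0.5 µM (-0.76 to 0.34). In SW620 at 0.5 µM the receptor median ran from -2.76 for 117 guides with over 200 and up to 400 day 0 counts, through -1.91 (up to 800, 574 guides) and -0.43 (up to 1600, 556 guides), to -0.14 for 173 guides over 1600. Non-targeting guides ran the same way, from -0.80 (25 guides) through -0.21 (461) to 0.19 (500) over the upper 3 of these ranges. Receptors lay below them in each of the 3. In RKO receptor medians were -0.38 (over 200 and up to 400 counts, 594 guides), -0.13 (up to 800, 524) and -0.01 (up to 1600, 133). Non-targeting guides did not run that way, at 0.26 (22), -0.05 (447) and 0.00 (502). At 0.38 µM in SW620 receptors stood at -0.33 (over 400 and up to 800, 574) and -0.08 (up to 1600, 556). Non-targeting guides stood at 0.03 (25) and 0.01 (461). Over day 0 rather than untreated day 20, the receptor median lay at -0.64 in RKO, -0.33 at 0.38 µM and -1.22 at 0.5 µM, and at -0.25, -0.14 and -0.28 with matched counts.

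Few receptor genes were outside the non-targeting range in the treated knockout libraries. In RKO 4 of 359 (1.11%) were low, against 2.26% of all genes: OR52E4 (-2.25), OR14A16 (-1.88), OR52E2 (-1.81) and OR4N5 (-1.64). The guides to OR52E4 had 343, 351, 285 and 637 counts untreated and 39, 106, 21 and 32 treated. OR52E4 and OR52E2 lay at -0.84 and -0.07 in SW620 at 0.38 µM. In SW620 6 (1.67%) were low at 0.38 µM and 14 (3.9%) at 0.5 µM, against 3.48% and 2.25% of all. No receptor gene was high in RKO or at 0.5 µM, where 1.36% and 0.136% of all were. OR4F29 (-3.59), OR4D9 (-3.32) and OR4M2 (-2.63) were lowest at 0.38 µM, and OR1M1 (-5.25), OR9Q1 (-4.73) and OR2A2 (-4.65) at 0.5 µM. OR4F29 had 3 passing guides that did not move together, with 215, 138 and 85 counts untreated and 1, 8 and 348 at 0.38 µM. OR1M1, in contrast, was low with all 4 guides at 0.5 µM, where its counts went from 554, 416, 353 and 250 to 11, 1, 3 and 3. At 0.38 µM its guides spread from 26 to 543 counts.

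The doses gave opposite values for OR2A2. Its 4 guides had 576, 360, 688 and 707 counts in the untreated SW620 library, 202, 1704, 1883 and 2088 at 0.38 µM and 98, 2, 13 and 18 at 0.5 µM. The gene's median was 1.28 at the lower dose, where 1 of 359 receptor genes was high (0.279%, against 0.298% of all), and -4.65 at the higher. In RKO OR2A2 lay at -1.21. The highest medians were those of OR8J1 (1.74), OR10P1 (1.69) and OR51Q1 (1.68) in RKO, OR8H2 (1.04) and OR4A5 (1.03) after OR2A2 at 0.38 µM, and OR4E2 (2.73), OR5B12 (2.26) and OR8B4 (2.05) at 0.5 µM. For OR4E2 the untreated counts of 462, 1149, 563 and 654 became 1193, 24, 6512 and 4292, so 1 guide ended lower and the others higher. The share of variance between genes was -0.0022 in RKO, 0.0212 at 0.38 µM and 0.0276 at 0.5 µM.

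In RKO activation at 1.9 µM receptor guides were far below non-targeting guides, and so was the rest of the library. The receptor median log2 fold over untreated was -0.73 (-1.13 to -0.48) and the non-targeting median 2.25 (2.15 to 2.36), a difference of -2.98. Raw counts show the same gap, with a median of 21.5 for receptor guides (quartiles 3 and 133) and 200 for non-targeting guides (138 and 337). A total of 155 receptor guides (14.6%) had 0 counts, against 1 non-targeting guide. Of all targeting guides 65.8% were low, and of receptor guides 66.1%. High guides made up 4.81% of all and 4.34% of receptor guides. The gap was -2.85 with matched day 0 counts, and its cause was not tested. The ribosomal proteins (-2.86) and other tissue-restricted families (-2.63) lay in the same place. At the gene level 258 of 353 receptor genes (73.1%) were low, against 72.4% of all, and OR2F2 (3.23) alone was high, 0.283% against 0.65% of all. The guides to OR2F2 went from 553, 788 and 245 counts to 6214, 2497 and 187. OR51B6 (-8.50), OR10K2 (-8.05) and OR10T2 (-8.03) were lowest, values that depend on the pseudocount because their guides were at or near 0 counts. Those of OR51B6 went from 747, 826 and 330 counts to 0, 0 and 3. OR13F1 (2.87) and OR1F1 (2.72) followed OR2F2 at the other end.

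In SW620 activation the receptor median stayed near the non-targeting median at both doses. The difference was -0.02 at 0.38 µM and -0.09 at 0.5 µM, and the intervals of receptor and non-targeting medians overlapped. At 0.5 µM receptors moved with day 0 counts, from -0.72 (up to 200, 153 guides) through -0.14 (up to 400, 564) to 0.18 (up to 800, 340). Non-targeting guides in these ranges lay at -0.57 (13), -0.01 (225) and 0.01 (257). Low receptor guides made up 14.2% and 12.4%, against 11.0% and 12.1% of all, and high ones 8.02% and 8.49%, against 8.74% and 8.86%. At 0.38 µM 12 of 353 genes (3.4%) were low and 7 (1.98%) high, against 3.39% and 2.22% of all. OR7G3 (-2.46), OR1K1 (-2.30) and OR4N5 (-2.16) were lowest, and OR5V1 (1.83), OR5H2 (1.74) and OR5P2 (1.70) highest. At 0.5 µM these 6 genes lay at -1.68, -0.97, 0.01, -0.02, 0.21 and 0.07. At that dose 13 (3.68%) were low and 15 (4.25%) high, against 4.26% and 2.28% of all. OR5R1 (-3.49), OR10H3 (-3.22) and OR1A1 (-2.77) were lowest, and OR52B6 (3.33), OR8B12 (2.67) and OR1A2 (2.15) highest. At 0.38 µM they lay at -0.56, -0.98, -1.17, 0.33, -0.69 and -0.01. The untreated counts behind these values were small: the 3 guides to OR52B6 had 21, 27 and 27 counts untreated, 245, 2 and 189 at 0.38 µM and 561, 23 and 650 at 0.5 µM. Those to OR5R1 had 26, 47 and 58 untreated, 94, 151 and 592 at 0.38 µM and 25, 6 and 1 at 0.5 µM.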

How the data were processed

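The authors deposited raw counts per guide for each of the 4 screens, whole numbers with a different total in every library. In the normalized tables the authors deposited beside them, the signal in each column equals the counts multiplied by a single constant for that library. How the constants were derived is not given here. Cutadapt 4.0 and MAGeCK 0.5.7 are named, without role or settings, per the submitters' processing notes. The sources used here give no genome build. All columns matched a sample by name, and 0 were left over.

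Counts were scaled by median-ratio size factors over all guides. A log2 fold used a pseudocount of 5 on scaled counts and guides with a day 0 count of at least 30. Every fold was then set against the median of non-targeting guides. Intervals of medians are 95% binomial order-statistic intervals over guides. For groups of receptors given relative to non-targeting guides, the non-targeting median was taken as fixed. Intervals of differences with matched counts subtract the opposite ends of the receptor and non-targeting intervals, and are not 95% intervals of the difference. All these intervals cover neither the spread between cultures nor PCR duplicates, which carry no molecular identifiers. A gene needed 3 guides in knockout and 2 in activation. Calculations used Python 3.11.15, numpy 2.4.6, pandas 2.3.3 and scipy 1.17.1, and were tested on simulated data.

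Of 361 receptor symbols 358 were current in RefSeq and 3 were older names (OR2W5, OR5R1, OR8G2). Named genes were the 5 lowest and 3 highest medians per untreated comparison, 3 and 3 per oxaliplatin comparison, the genes low in both knockout screens and 5 receptors described outside the nose. Genes of the OR4F subfamily, those that alone passed a limit or shared a promoter, and the non-receptor genes were named after their values were seen. The members and lists were chosen with earlier results of these data known.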

Additional observations from a re-analysis of the deposited data

Results flagged for a closer look

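Only the named genes were searched here, most of them named for a lowest or highest median, in part in these same comparisons. Among them, the medians of several lay outside the non-targeting range in opposite directions in the 2 lines under oxaliplatin. How often this occurs over all receptor genes or all genes was not counted. Here the median alone was considered, with no minimum number of guides, so OR8J1 is not among the genes counted as high or low above. The doses differed between the lines and the difference itself was not tested. In knockout OR8J1 lay at 1.74 log2 units over untreated in RKO at 1.9 µM and at -1.82 in SW620 at 0.38 µM, with 2 of 4 guides past the limit in each line.

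The other 7 genes came from the activation screens, where most of the library lay below non-targeting guides in RKO at 1.9 µM. All targeting guides had a median of -3.08 there, and OR2H2 and OR6N2 lay above it. Lying below the non-targeting range in that comparison thus did not set these genes apart from the library. OR2H2 lay at -2.60 in RKO and 1.56 in SW620 at 0.38 µM, OR5H2 at -3.50 and 1.74, and OR5P2 at -3.62 and 1.70. Against SW620 at 0.5 µM, OR1A2 lay at -7.65 in RKO and 2.15 in SW620, OR52B6 at -3.96 and 3.33, OR6C74 at -7.05 and 1.75, and OR6N2 at -2.13 and 1.80.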

How the results depend on the processing

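Each difference between receptor and non-targeting guides was recomputed under 10 other settings chosen at the start and 2 added after seeing the data (without OR4F, and with the authors' deposited normalized values). Untreated knockout differences ranged from -0.36 to -0.30 in RKO and from -0.13 to -0.11 in SW620. Untreated activation differences ranged from 0.05 to 0.06 and from 0.01 to 0.03. Starting counts mattered in the treated knockout libraries: with matched day 0 counts the difference was -0.024 instead of -0.24 in RKO at 1.9 µM, -0.018 instead of -0.22 in SW620 at 0.38 µM and -0.11 instead of -1.07 at 0.5 µM. Among guides of over 400 and up to 800 day 0 counts receptors lay below non-targeting guides in each of these. In RKO activation at 1.9 µM it ranged from -3.12 to -2.79. In SW620 activation at 0.38 µM it ranged from -0.10 to -0.01, against -0.02 as reported. At 0.5 µM it ranged from -0.18 to 0.07, on both sides of 0. The share of low receptor guides in untreated RKO knockout was 32.2% without a count minimum and 29.8% with matched counts. A further setting, leaving out receptors with near-identical proteins, was not run, since no protein sequences were used here. No paired analysis was possible because every condition had 1 library and the labels give no replicate numbers. One library per condition and 3 or 4 guides per gene limit every value. Depth limits the activation values, with a median of 57 counts per receptor guide in untreated SW620 and 21.5 in RKO at 1.9 µM.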
